A study of Homo sapiens with 24 samples.

Results

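The 6 genes described here are the liver X receptors NR1H2 and NR1H3 and the LXR target genes ABCA1, ABCG1, MYLIP and LPCAT3, read out by every probe that the platform annotation assigns to them. That annotation assigned 9 of the 47323 probes to 5 of the 6 genes, with 5 probes for ABCG1 and 1 each for ABCA1, MYLIP, LPCAT3 and NR1H3. The expression of NR1H2 was not analysed here. All 9 probes passed the filter on dim signals (a detection p-value under 0.05 on at least 3 arrays), as did 24607 probes in all, and the 5 genes stood among 12895 genes tested. The members were chosen by the values of ABCA1 and ABCG1, which had been seen to fall with steroid on these arrays. Their differences from vehicle are therefore descriptions with no test. The choice was taken to rest on those differences. ABCA1 and ABCG1 were tested only between groups outside them, and other genes also within them or across both, apart from the members' differences from vehicle. The spread behind every test was estimated over all arrays, those of the choice included. Earlier results of these data were known, so the tests are not independent of the choice.

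Expression was measured on 24 Illumina beadchips in LREX' cells, a single human prostate cancer line derived from LNCaP that grows in the presence of the antiandrogen enzalutamide and carries much glucocorticoid receptor. All 8 groups were grown in charcoal-stripped, steroid-depleted medium and treated for 8 h, with 3 arrays per group that the series calls biological triplicates. Cells without enzalutamide received vehicle (DMSO), the androgen dihydrotestosterone (DHT) at 1 nM, or the synthetic glucocorticoid dexamethasone (Dex) at 10 nM or 100 nM. The other 4 groups received enzalutamide, alone at 10 µM or together with DHT at 1 nM, Dex at 10 nM or Dex at 100 nM, where the labels state no enzalutamide dose.

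Liver X receptors are nuclear receptors that bind oxysterols, pair with a retinoid X receptor and switch on genes that move cholesterol out of a cell. ABCA1 hands cholesterol and phospholipid to lipid-poor apolipoprotein A-I, and ABCG1 passes cholesterol on to high-density lipoprotein. MYLIP, also called IDOL, is a ubiquitin ligase that marks the LDL receptor for degradation, and LPCAT3 places polyunsaturated fatty acids into membrane phospholipids. In LNCaP cells androgen is known to lower ABCA1, and prostate cancer cells are known to store cholesterol as esters.

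The receptors recognise a direct repeat of the hexamer AGGTCA with 4 bases of any kind between the copies. The 250 bases before the RefSeq starts of ABCA1, MYLIP, LPCAT3, NR1H3 and NR1H2 were searched for this repeat on both strands, with up to 1 mismatch in each hexamer. ABCG1 was not searched here. ABCA1 held 1 match, at bases -69 to -54, with 1 mismatch in each hexamer. Its promoter is shown because it alone among the windows searched held a match, and the capitals mark the match, which reads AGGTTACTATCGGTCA on the opposite strand (RefSeq, GRCh38.p14, chr9:104928156-104928405, minus strand, written 5′ to 3′ in the direction of the gene).
ABCA1 promoter: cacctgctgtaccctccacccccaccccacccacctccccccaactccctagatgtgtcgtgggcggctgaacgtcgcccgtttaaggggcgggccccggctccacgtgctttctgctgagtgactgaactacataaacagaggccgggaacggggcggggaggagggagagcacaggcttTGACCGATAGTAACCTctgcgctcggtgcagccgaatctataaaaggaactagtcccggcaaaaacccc
Of 35116 RefSeq promoter windows of this length, 1.18% held such a match and 0.0142% held one without a mismatch. No match stood in these windows of MYLIP, LPCAT3, NR1H3 (4 windows) or NR1H2. The androgen and glucocorticoid response element, searched as AGAACA, 3 bases of any kind and TGTTCT with up to 1 mismatch on each side, was in 0.698% of all windows and in none of the windows searched for these 5 genes. A match describes letters only, and its absence says nothing about binding elsewhere. In GRCh38.p14 the genes lie at chr9:104781006-104928155 (ABCA1), chr21:42199689-42297244 (ABCG1), chr6:16129086-16163887 (MYLIP), chr12:6976185-7018476 (LPCAT3) and chr11:47248300-47269033 (NR1H3). The probes themselves were not placed on a genome.

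The arrays were alike in quality, with median signals of 59.4 to 69.5, 19463 to 21017 probes detected and correlations of 0.992 to 0.995 within groups. The steroids had acted in these cells: FKBP5, SGK1 and TMPRSS2, known steroid receptor targets, were each higher with DHT and both Dex doses than with vehicle, and each fell when enzalutamide was added to DHT. The 6 markers of prostate luminal epithelium examined were all detected on all 24 arrays. Of 8 macrophage markers, CD68 and AIF1 were detected on all 24 arrays, CD14 on 10, MSR1 on 7, CD163 on 5, PTPRC and CSF1R on 1 each and MARCO on none. Of 6 fibroblast markers, COL1A1 was detected on all 24, LUM and PDGFRB on 11 each, DCN on 7, COL1A2 on 4 and COL3A1 on none. Of 5 endothelial markers, VWF was detected on all 24, KDR on 1 and PECAM1, CDH5 and CLDN5 on none. The spread between arrays sets all errors below, and the 3 arrays per group limit the precision.

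ABCG1, the transporter that loads high-density lipoprotein, was lower with either steroid in cells without enzalutamide, and in the presence of enzalutamide it was lower with Dex but not called with DHT. Values are log2 signals after background correction and quantile normalization, and they compare 1 probe with itself and never 1 gene with another. Without enzalutamide the brightest ABCG1 probe read 7.87, 7.87 and 7.88 on the vehicle arrays. With DHT it read 7.14, 7.15 and 7.40. It read 7.26, 7.47 and 7.61 with Dex at 10 nM and 7.08, 7.10 and 7.13 with Dex at 100 nM. Every steroid array was below every vehicle array. The differences from vehicle were -0.64 for DHT, -0.43 for Dex at 10 nM and -0.77 for Dex at 100 nM (SE 0.10 each, n = 3 arrays per group), which is 1.56-fold, 1.35-fold and 1.71-fold lower. In a bulk culture, fewer cells that express a gene and less of its RNA per cell cannot be told apart.

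With enzalutamide alone the same probe read 7.80, 7.91 and 8.10. Enzalutamide plus DHT gave 7.71, 7.91 and 8.03, which lay within and around the enzalutamide values. Enzalutamide plus Dex gave 7.30, 7.51 and 7.54 at 10 nM and 7.15, 7.25 and 7.35 at 100 nM. All 6 of these Dex arrays were below all 6 arrays with enzalutamide alone or with DHT. The choice of members was taken to rest on the differences from vehicle, which use none of these 12 arrays. The differences under enzalutamide were therefore tested by limma across all 12895 genes. Their errors come from a spread shared by all groups, so the arrays behind the choice still enter the p-values. Earlier results of these data were known at the choice, so these tests are not independent of it.

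ABCG1 fell 1.61-fold with Dex at 100 nM in the presence of enzalutamide (log2 -0.68 ± 0.10, SE, 95% interval -0.90 to -0.47, limma adjusted p = 0.000245). With Dex at 10 nM it fell 1.40-fold (log2 -0.48 ± 0.10, 95% interval -0.70 to -0.27, limma adjusted p = 0.0200). That second call did not pass under median scaling (adjusted p = 0.116), with only the arrays of these groups in the fit (0.249), or without enzalutamide replicate 2 (0.0595), enzalutamide replicate 3 (0.142) or enzalutamide plus Dex 10 nM replicate 3 (0.130). The step from 10 to 100 nM Dex under enzalutamide was -0.20 (95% interval -0.42 to 0.02, limma adjusted p = 0.788). DHT in the presence of enzalutamide gave a difference of -0.05 (95% interval -0.27 to 0.17, limma adjusted p = 1.00). Dex at 100 nM and DHT, both with enzalutamide, differed by -0.63 ± 0.10 (limma adjusted p = 0.000646), with ABCG1 lower under Dex. Their concentrations differ.

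Set in order of its group means, ABCG1 formed an upper and a lower set. Enzalutamide alone (7.94 ± 0.15, SD, n = 3 here and below), enzalutamide plus DHT (7.89 ± 0.16) and vehicle (7.88 ± 0.01) overlapped. A gap of 0.42 with no overlap followed. Below it stood enzalutamide plus Dex 10 nM (7.45 ± 0.13), Dex 10 nM (7.44 ± 0.18), enzalutamide plus Dex 100 nM (7.25 ± 0.10) and DHT (7.23 ± 0.15), where each overlapped the next. Dex 100 nM (7.10 ± 0.03) was lowest and did not overlap DHT, at a distance of 0.13 with a pooled SD of 0.13. The lower set thus held every Dex group and, of the DHT groups, the one without enzalutamide.

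Adding enzalutamide to DHT raised the mean of ABCG1 by 0.65, given as a description because the DHT arrays had entered the choice of members. Adding it to Dex moved the mean by 0.01 at 10 nM and 0.15 at 100 nM. The difference between the DHT response with and without enzalutamide was 0.59 ± 0.15, against -0.05 ± 0.15 for Dex at 10 nM and 0.09 ± 0.15 for Dex at 100 nM. None of these 3 was tested.

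**Figure D1:**
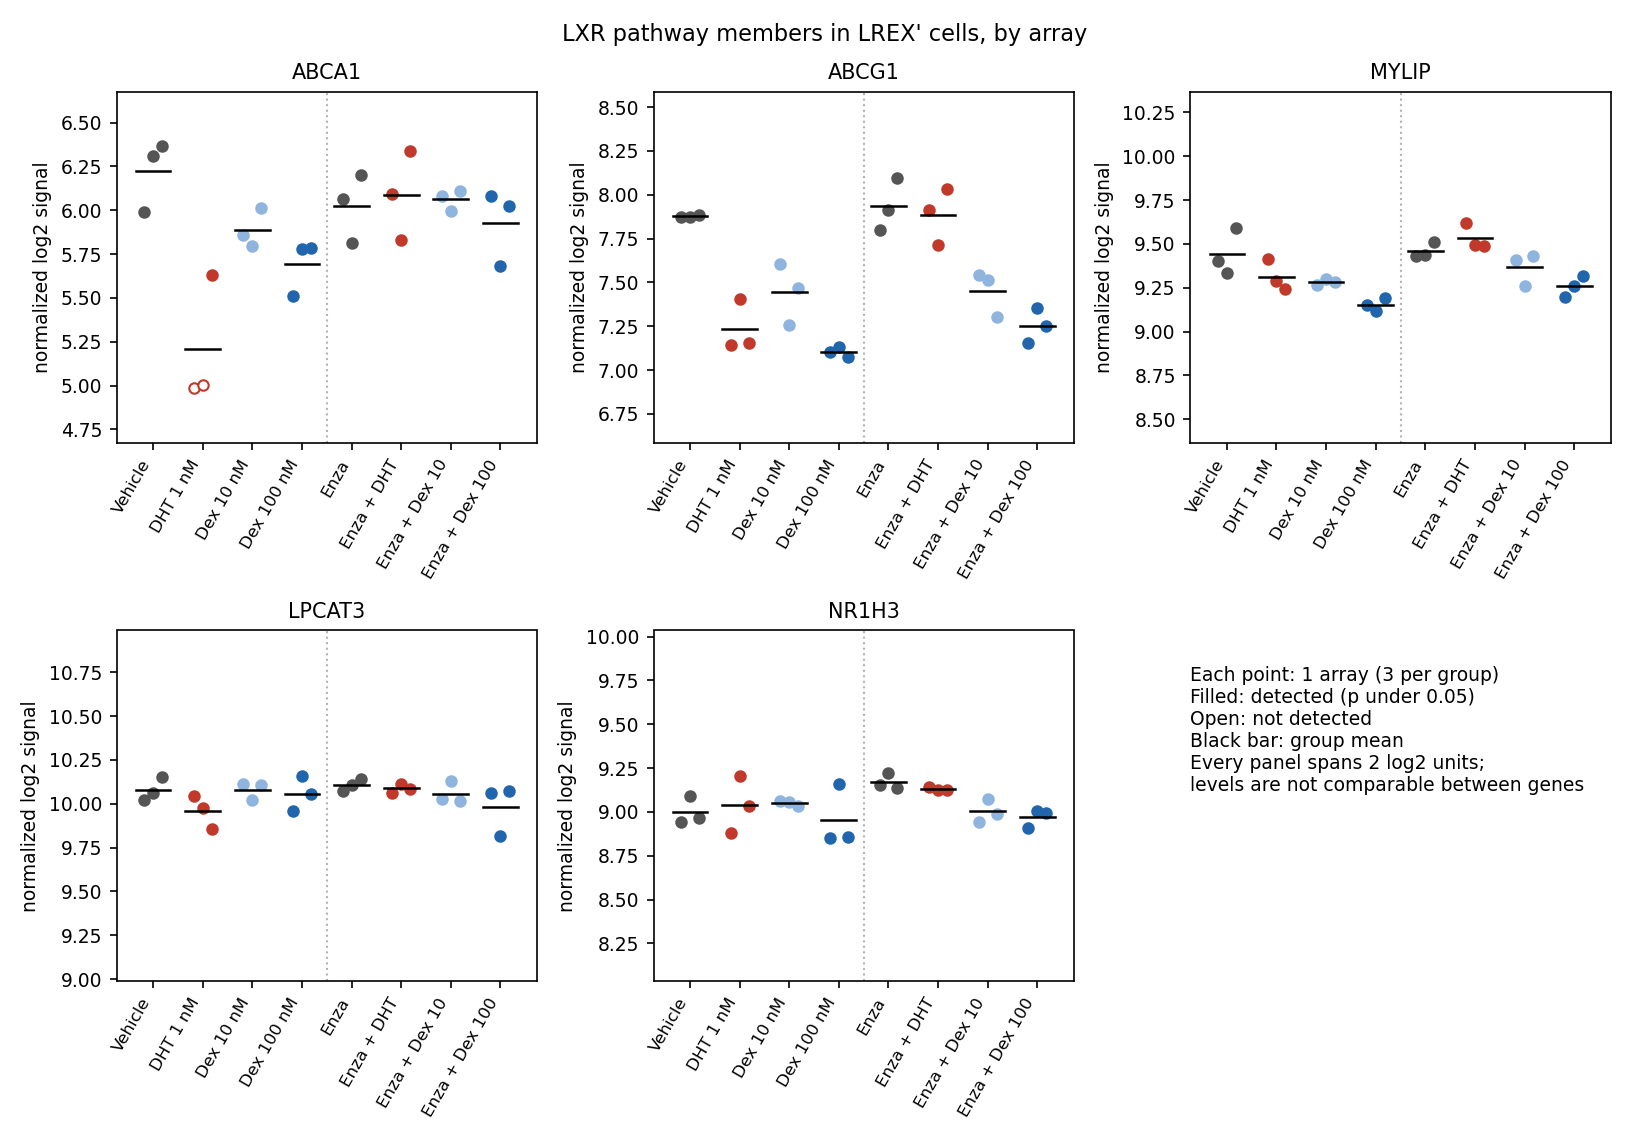
Normalized log2 signal (vertical axis) of ABCA1, ABCG1, MYLIP, LPCAT3 and NR1H3 on each of 24 arrays, by treatment (horizontal axis), with groups receiving enzalutamide right of the dotted line; each point is 1 array, open points were not detected and bars are group means. ABCG1 read 7.08 to 7.61 on the 9 arrays with steroid alone and the vehicle arrays 7.87 to 7.88, while 2 of 3 ABCA1 points with DHT were not detected.

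A marker of another cell type moved in the same direction as ABCG1 with Dex, but did not share its rise when enzalutamide was added to DHT. VWF, which endothelial cells make, was the one endothelial marker detected on all arrays. It was called lower with Dex at 100 nM (log2 -0.46) and, in the presence of enzalutamide, with Dex at 10 nM (-0.45) and 100 nM (-0.59). With DHT alone VWF gave -0.25 and was not called. Adding enzalutamide to DHT moved VWF by 0.02, against 0.65 for ABCG1. The summed normalized signal of all probes of the 5 endothelial markers was 326 to 359.8 with vehicle, 291 to 325 with DHT, 289 to 306 with Dex 10 nM and 258 to 302 with Dex 100 nM. It was 319 to 335 with enzalutamide, 295 to 329.9 with DHT added, 248 to 269 with Dex 10 nM added and 243 to 252 with Dex 100 nM added. Apart from VWF, that endothelial sum held KDR, detected on 1 array, and PECAM1, CDH5 and CLDN5, detected on none. The summed macrophage markers ran from 864 to 999.7 over all groups. The cultures were of a single line, and the relation of these markers to ABCG1 was not tested.

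ABCG1 had 5 probes, and they disagreed. Probe 3, annotated to the same transcript record as the brightest probe, was dimmer and detected on 18 of 24 arrays. With enzalutamide alone it read 5.30, 5.62 and 6.10, and with Dex 100 nM added 4.97, 5.11 and 5.23, the lowest of which was not detected. Its difference of -0.57 had the direction of the brightest probe but did not pass in a limma fit of every probe (adjusted p = 0.248), where the brightest probe passed at 0.000486. Probe 2, annotated to another transcript record and detected on 21 arrays, read 5.05, 5.22 and 5.33 with enzalutamide and 5.20, 5.24 and 5.56 with Dex 100 nM added, a difference of 0.13. Against vehicle, Dex at 100 nM gave 0.39 at probe 2 and -0.72 at probe 3. Probes 4 and 5 were detected on 7 and 4 arrays, so they stood near background on most arrays. The called fall of ABCG1 is thus that of the brightest probe. Whether it is particular to the record that probes 1 and 3 share was not tested. Probe 2 was about as dim as probe 3, with mean log2 signals of 5.38 and 5.34.

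**Figure D2:**
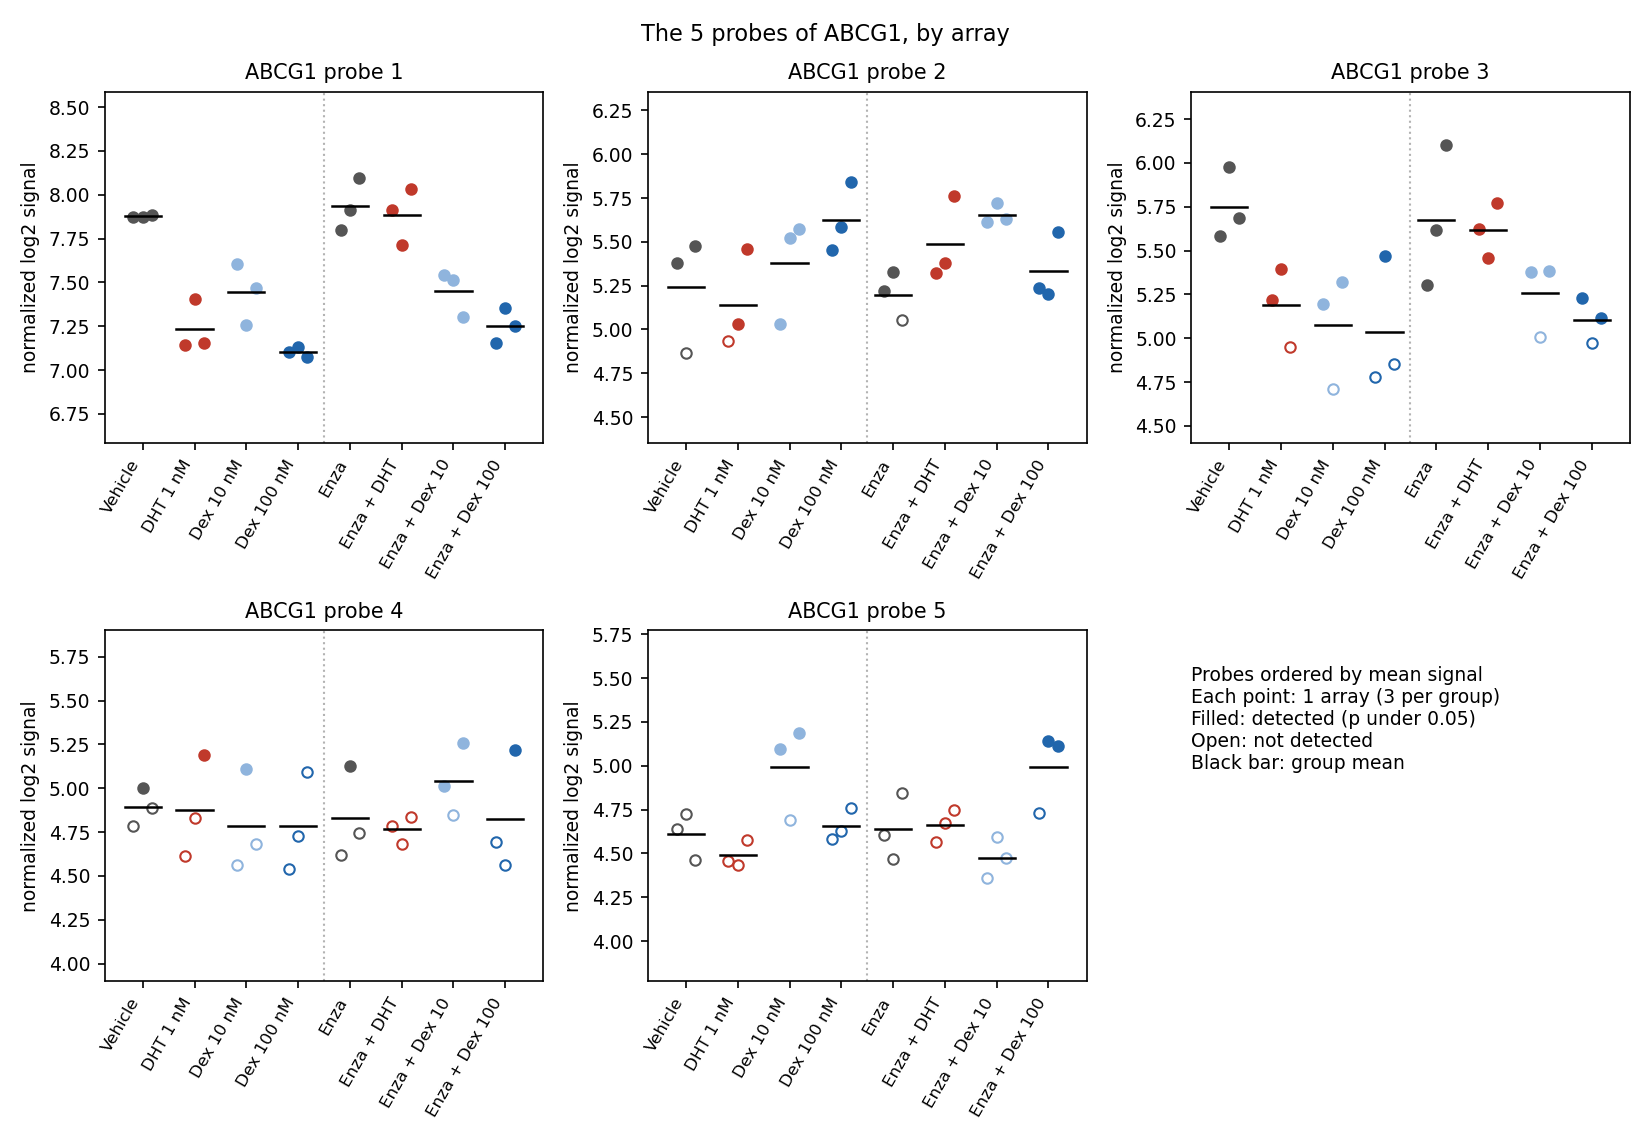
Normalized log2 signal (vertical axis) of the 5 ABCG1 probes on each of 24 arrays, by treatment (horizontal axis); each point is 1 array, open points were not detected and bars are group means. Probes 1 and 3 have lower means in the Dex groups and with DHT alone, though probe 3 was not detected on some of these arrays. Probe 2 does not share this pattern, and probes 4 and 5 were mostly not detected.

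ABCA1, the transporter that loads apolipoprotein A-I, was lowest with DHT and showed no called difference for any steroid in the presence of enzalutamide. Its single probe was dim and was detected on 22 of 24 arrays. Vehicle arrays read 5.99, 6.31 and 6.37, and DHT arrays 4.98, 5.01 and 5.63. The 2 lower DHT values were not detected, so the probe was measured above background on 1 of 3 DHT arrays. Dex gave 5.79, 5.86 and 6.01 at 10 nM and 5.51, 5.78 and 5.78 at 100 nM. All DHT and Dex 100 nM arrays were below all vehicle arrays, whereas 1 Dex 10 nM array lay above the lowest vehicle array.

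The differences from vehicle were -1.02 for DHT, -0.33 for Dex at 10 nM and -0.53 for Dex at 100 nM (SE 0.17 each). Because the probe was dim, these sizes depended on the background step: without background correction DHT gave -0.60, and with an offset of 50 in place of 16 it gave -0.61. Dex at 100 nM gave -0.33 and -0.34 under the same settings.

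With enzalutamide alone ABCA1 read 5.81, 6.06 and 6.20, and with DHT added 5.83, 6.09 and 6.34. It read 6.0, 6.08 and 6.11 with Dex 10 nM added and 5.68, 6.03 and 6.08 with Dex 100 nM added. These 4 groups overlapped one another. The limma differences from enzalutamide alone were 0.06 for DHT (95% interval -0.29 to 0.41, adjusted p = 1.00), 0.04 for Dex at 10 nM (-0.31 to 0.38, adjusted p = 0.972) and -0.10 for Dex at 100 nM (-0.44 to 0.25, adjusted p = 0.862). These 3 comparisons share the arrays with enzalutamide alone, as those without enzalutamide share the vehicle arrays.

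In order of group means, ABCA1 ran from vehicle (6.22 ± 0.20) through enzalutamide plus DHT (6.09 ± 0.25), enzalutamide plus Dex 10 nM (6.06 ± 0.06), enzalutamide (6.03 ± 0.20), enzalutamide plus Dex 100 nM (5.93 ± 0.22) and Dex 10 nM (5.89 ± 0.11) to Dex 100 nM (5.69 ± 0.15) and DHT (5.21 ± 0.37). Neighbours overlapped except Dex 10 nM and Dex 100 nM, which lay 0.20 apart with a pooled SD of 0.21. Enzalutamide added to DHT raised the ABCA1 mean by 0.88, and the DHT response with enzalutamide exceeded that without it by 1.08 ± 0.23. For Dex these response differences were 0.37 ± 0.23 at 10 nM and 0.43 ± 0.23 at 100 nM. Both DHT values rest on a group in which ABCA1 was not detected on 2 of 3 arrays. Without background correction they were 0.51 and 0.64, and the Dex response differences 0.23 and 0.27. These are descriptions for the reason given for ABCG1.

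Enzalutamide without steroid left both transporters near vehicle, with differences of -0.20 for ABCA1 and 0.06 for ABCG1, where the arrays of both groups overlapped.

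MYLIP, the ligase that targets the LDL receptor, was bright, was detected on all 24 arrays and varied little. It read 9.33, 9.41 and 9.59 with vehicle, 9.24, 9.29 and 9.42 with DHT, 9.26, 9.29 and 9.30 with Dex 10 nM and 9.12, 9.15 and 9.19 with Dex 100 nM. The Dex arrays lay below the vehicle arrays at both doses, and the DHT arrays overlapped them. Differences from vehicle were -0.13, -0.16 and -0.29 (SE 0.07).

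Under enzalutamide MYLIP read 9.43, 9.44 and 9.51 without steroid, 9.49, 9.49 and 9.62 with DHT, 9.26, 9.41 and 9.43 with Dex 10 nM and 9.20, 9.26 and 9.31 with Dex 100 nM. The Dex 100 nM arrays lay below those with enzalutamide alone or with DHT. Against enzalutamide alone the difference of -0.20 did not pass (limma adjusted p = 0.153). Against enzalutamide plus DHT, MYLIP was 1.21-fold lower with Dex 100 nM (log2 -0.28 ± 0.07, limma adjusted p = 0.0343). This call did not pass under 4 of 11 other settings (adjusted p of 0.0543 to 0.245) or without a single array, for each of the 3 enzalutamide plus DHT arrays and for replicates 1 and 2 of enzalutamide plus Dex 100 nM (0.0601 to 0.163). Added to DHT, enzalutamide gave a MYLIP difference of 0.22 (limma adjusted p = 0.106).

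LPCAT3, the lysophospholipid acyltransferase, was detected on every array and held between 9.82 and 10.16. Its differences from vehicle were -0.12 with DHT, 0.00 with Dex 10 nM and -0.02 with Dex 100 nM. In the presence of enzalutamide the differences from enzalutamide alone were -0.02, -0.05 and -0.13. The last had a limma adjusted p of 0.489, and its Dex 100 nM arrays lay just below those with enzalutamide alone. Every neighbouring pair in the order of the 8 LPCAT3 group means overlapped.

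NR1H3, the receptor LXR alpha itself, was likewise detected on every array, between 8.85 and 9.22. Vehicle read 8.94, 8.96 and 9.09, against 8.88, 9.04 and 9.21 with DHT, 9.04, 9.05 and 9.06 with Dex 10 nM and 8.85, 8.86 and 9.16 with Dex 100 nM, all of which overlapped vehicle. Enzalutamide alone read 9.14, 9.15 and 9.22, above vehicle by 0.17 (limma adjusted p = 0.640). Under enzalutamide the Dex arrays, at 8.94 to 9.08 and 8.91 to 9.01, were below those without steroid. The differences of -0.17 and -0.20 did not pass (limma adjusted p = 0.532 and 0.252).

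**Figure D3:**
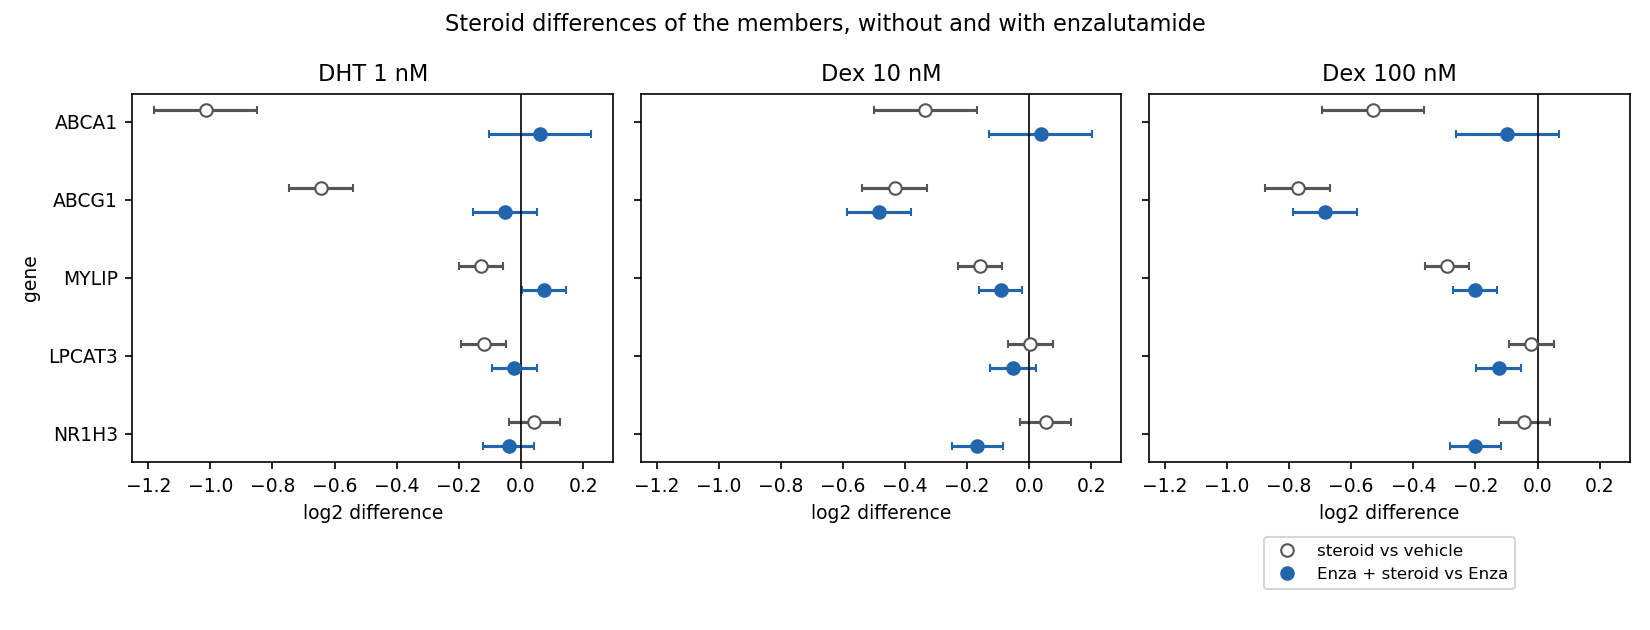
Log2 difference (horizontal axis) of each member (vertical axis) for DHT 1 nM, Dex 10 nM and Dex 100 nM, against vehicle (open points) and, with enzalutamide present, against enzalutamide alone (filled points); bars are standard errors from the fit, n = 3 arrays per group. For DHT the open points of ABCA1 (-1.02) and ABCG1 (-0.64) stand far from the filled ones (0.06 and -0.05), whereas for Dex 100 nM both ABCG1 points are low (-0.77 and -0.68).

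Counted over the 5 measured members, calls were few. ABCG1 had itself guided the choice of members, so its calls in these counts are not independent of that choice. With DHT in the presence of enzalutamide 0 of 5 members were called, as were 0 of 12895 genes by limma (0%; 428 at an unadjusted p under 0.05). With Dex at 10 nM under enzalutamide 1 of 5, ABCG1, was called lower, where 0.186% of all genes were called lower and 1.08% either way. At 100 nM it was again 1 of 5, ABCG1, against 1.18% lower and 3.4% either way. Between Dex 100 nM and DHT, both with enzalutamide, ABCG1 and MYLIP were called lower, 2 of 5 against 0.907% lower and 3.13% either way. Between the 2 Dex doses under enzalutamide the count was 0 of 5, with 0.512% of genes called.

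MYLIP, LPCAT3 and NR1H3 were also tested where arrays of the choice took part, and 0 of 3 were called in any of those comparisons. The share of all genes called was 0.0155% for enzalutamide against vehicle, 3.72% for enzalutamide added to DHT, 0.651% for Dex 100 nM against 10 nM and 2.61% for Dex 100 nM against DHT. It was 0% for enzalutamide added to Dex at 10 nM and at 100 nM, by limma, where 900 and 1050 genes had an unadjusted p under 0.05. For the difference in response with and without enzalutamide it was 1.81% for DHT and 0% for either Dex dose, where 1003 and 981 genes had an unadjusted p under 0.05. The median difference of the 5 members from vehicle was -0.13 with DHT, -0.16 with Dex 10 nM and -0.29 with Dex 100 nM, beside -0.01 over all genes each time. Each of these medians is the value of MYLIP, with ABCA1 and ABCG1, chosen for their fall, below it. LPCAT3 and NR1H3 lay between -0.12 and 0.05, so the medians do not show a fall of the members as a set. Against vehicle 4.26%, 2.19% and 5.06% of all genes were called, and nothing is read from this for the members.

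Across the 24 arrays ABCA1 and ABCG1 correlated at r = 0.57 and over the 8 group means at r = 0.68. ABCG1 and MYLIP correlated at 0.77 and 0.93. The 5 genes nearest to ABCA1 over 24 arrays were PKIA (r = 0.86), NAPEPLD (0.85), HOXC13 (0.82), ZCCHC24 (0.82) and GPATCH2 (0.81). Nearest to ABCG1 were MAP3K8 (0.92), SEMA6A (0.91), BAMBI (0.90), LMO4 (0.90) and LRRC42 (0.89). These values describe arrays that share treatments, and they carry no test.

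Other genes of the pathway gave few calls, and against vehicle or enzalutamide alone every gene called among the further LXR targets, sterol ligand enzymes and uptake genes was higher with steroid. Of 17 further LXR targets 15 were on the array and 9 passed the filter on dim signals. With DHT 1 of the 9 rose, with Dex 10 nM 1, and with Dex 100 nM 2. Under enzalutamide 0 rose with DHT, 1 with Dex 10 nM and 2 with Dex 100 nM, and none fell in these 6 comparisons. Among all genes 4.26%, 2.19% and 5.06% were called against vehicle, and 0%, 1.08% and 3.4% under enzalutamide. Of the calls under enzalutamide, 24 of 139 were lower with Dex 10 nM and 152 of 439 with Dex 100 nM. Most calls among all genes were thus higher there too, and nothing is read from the direction of these few. The list median against vehicle was 0.02 with DHT, 0.02 with Dex 10 nM and -0.04 with Dex 100 nM, beside -0.01 over all genes each time. Under enzalutamide it was 0.01, 0.02 and 0.12, beside 0.00, -0.01 and -0.02 over all genes. SREBF1, SCD and FASN, the lipid synthesis arm of the LXR response, had differences between -0.15 and 0.16 over all comparisons and no call.

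The LXR targets called were MERTK, a receptor kinase for dying cells, SMPDL3A, a phosphodiesterase induced by LXR in human macrophages, and RNF145, a ubiquitin ligase known as an LXR target in mouse liver. SMPDL3A and RNF145 changed less than 1.5-fold and are named after their values were seen. MERTK rose 1.46-fold with DHT (log2 0.54 ± 0.09, limma adjusted p = 0.000792). With Dex at 100 nM it gave -0.23 (adjusted p = 0.197). It was lower when enzalutamide was added to DHT (log2 -0.65, limma adjusted p = 0.000114).

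SMPDL3A and RNF145 rose with Dex at 100 nM, and with DHT gave 0.15 (limma adjusted p = 0.362) and -0.04 (0.932). Under enzalutamide with Dex 100 nM, SMPDL3A rose by 0.37 ± 0.07 (limma adjusted p = 0.0023) and RNF145 by 0.40 ± 0.09 (0.00939). Without enzalutamide the Dex 100 nM differences were 0.27 (0.0223) and 0.50 (0.000851). Both calls with Dex 100 nM under enzalutamide missed the threshold in 2 of 11 other settings, with adjusted p up to 0.0972 for SMPDL3A and 0.144 for RNF145. That of RNF145 also missed it without enzalutamide replicate 1 or enzalutamide plus Dex 100 nM replicate 3 (0.0515 to 0.0596). The SMPDL3A call without enzalutamide was lost under median scaling (0.328), with only the groups compared (0.227), and without vehicle replicate 1 or 2 or Dex 100 nM replicate 1 or 3 (0.0585 to 0.134). SMPDL3A was also called lower when enzalutamide was added to DHT, and higher with Dex 10 nM under enzalutamide. RNF145 was also called higher with Dex 10 nM against vehicle. Each of these calls missed the threshold in 2 of 11 other settings (limma adjusted p up to 0.277), and those of SMPDL3A also without some single arrays.

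Among genes that make or remove sterol ligands, 5 of 10 were tested and SULT2B1, which sulfates cholesterol and oxysterols, was the only one called. It rose 1.84-fold with Dex 100 nM under enzalutamide (log2 0.88 ± 0.11, limma adjusted p = 2.1e-05) and 1.46-fold without it (0.54 ± 0.11, 0.00376, or 0.0518 with only the groups compared in the fit). With DHT the difference was -0.20 (0.498). CYP27A1, DHCR7, EBP and CYP51A1 were not called in any comparison.

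Of 14 genes of cholesterol uptake and storage 11 were tested, and NPC1, which exports cholesterol from lysosomes, was the only one called. It rose 1.51-fold with DHT (log2 0.60 ± 0.07, limma adjusted p = 1.45e-05), 1.68-fold with Dex 10 nM (0.75, 1.3e-06) and 2.22-fold with Dex 100 nM (1.15, 1.02e-09). Under enzalutamide it rose by 0.59 with Dex 10 nM (4.69e-05, or 0.0575 with only the groups compared in the fit) and 0.84 with Dex 100 nM (1.23e-07), and DHT gave 0.00 (adjusted p = 1.00). NPC1 was thus high in the groups in which ABCG1 was low.

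No call was made among the LXR partners RXRA and RXRB (2 tested of 5), the 7 tested of 13 other ABCA and ABCG transporters, or the 7 tested of 10 other lysophospholipid acyltransferases. In the comparisons under enzalutamide the medians of the other transporters were -0.12 for DHT, -0.02 for Dex 10 nM and 0.05 for Dex 100 nM.

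**Figure D4:**
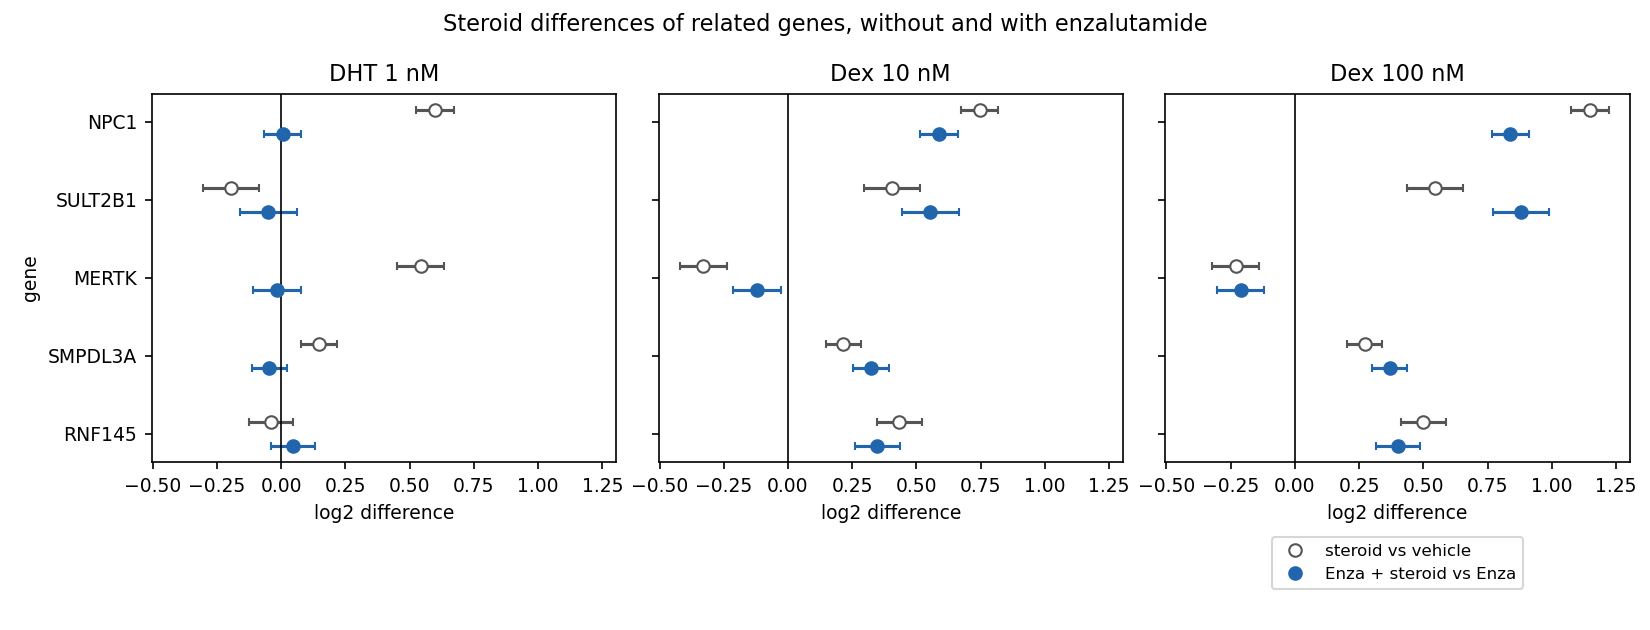
Log2 difference (horizontal axis) of 5 related genes (vertical axis) for DHT 1 nM, Dex 10 nM and Dex 100 nM, against vehicle (open points) and, with enzalutamide present, against enzalutamide alone (filled points); bars are standard errors, n = 3 arrays per group. NPC1 lies at 0.60 with DHT alone and 0.00 with enzalutamide present, and stays above 0.5 in all 4 Dex comparisons.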

How the data were processed

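Arrays were grouped by the treatment in the sample titles. Each deposited intensity is a probe's mean bead signal, which the file headers give as not normalized. The detection p-value deposited beside it sets that signal against the array's negative controls, and the number of beads and their standard error follow, per the file headers. The submitters' processing notes name GenomeStudio without a version. A second deposited table of normalized intensity, whose method is unstated, was an alternative.

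Background was corrected by normexp with control parameters inferred from detection p-values and an offset of 16, followed by quantile normalization and log2 (limma 3.58.1, R 4.3.3). A probe needed a detection p under 0.05 on 3 or more arrays, and the probe with the highest mean stood for its gene. Of 47323 probes, 30113 had 1 gene symbol, 8 several and 17202 none in the annotation given here; 30074 were matched in RefSeq GRCh38.p14 and 0 symbols changed. One model of 8 group means was fitted to 24 arrays (lmFit, eBayes), with Benjamini-Hochberg adjustment over 12895 genes within each comparison and a call at an adjusted p under 0.05. The procedure was tested on simulated data, with changes placed in bright genes only and the same spread for every gene. That test does not cover dim probes such as that of ABCA1. The members and lists were chosen with earlier results of these data known. Named are all member probes, the 5 genes nearest to ABCA1 and to ABCG1, up to 4 genes per list called at 1.5-fold or more, 3 steroid response genes, and the measured genes of lists with 5 or fewer. Named outside this rule are SMPDL3A, RNF145, SREBF1, SCD, FASN and the cell type markers. Of the 24 arrays, 0 pairs held identical values. Alternatives changed the background step, offset, scaling, source table, filter, probe choice, variance prior, array weights, arrays in the fit and replicate block, and left out each array in turn.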

Additional observations from a re-analysis of the deposited data

Results flagged for a closer look

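For 2 related genes the DHT response differed with and without enzalutamide by a test of that difference in the limma model. For NPC1 the difference was -0.59 (SE 0.10, adjusted p = 0.00194): DHT gave 0.60 without enzalutamide and 0.00 with it. This call did not pass under median scaling (adjusted p = 0.173). For MERTK the difference was -0.56 (SE 0.13, adjusted p = 0.0289), from 0.54 without and -0.02 with enzalutamide. It did not pass under median scaling (adjusted p = 0.283), in the fit of every probe (0.0519), or without vehicle replicate 1, enzalutamide replicate 3, any single DHT array, or enzalutamide plus DHT replicate 2 or 3 (0.0532 to 0.0909). Over all genes 1.81% were called in this comparison.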

How the results depend on the processing

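The call of ABCG1 with Dex 100 nM under enzalutamide passed under all 11 other settings (log2 -0.69 to -0.57, adjusted p of 0.000104 to 0.0297) and without each of the 6 arrays in turn (-0.75 to -0.60, adjusted p of 0.000352 to 0.00302). With Dex 10 nM it missed the threshold under median scaling (-0.41, adjusted p = 0.116) and with only the groups compared in the fit (-0.48, 0.249), where 0 members were then called; leaving out 1 array gave -0.55 to -0.40 and 0 to 1 members. For Dex 100 nM against DHT under enzalutamide 1 member in place of 2 was called under median scaling, with no filter on dim probes, in the fit of every probe and with only the groups compared, and 1 to 2 when 1 array was left out. The members' median for Dex 10 nM against vehicle was -0.32 in place of -0.16 under median scaling. That scaling moved the median of all genes by -0.12 for this comparison, 0.11 for enzalutamide added to Dex 10 nM and 0.18 for the Dex 10 nM response difference. Leaving out 1 array turned the sign of uncalled differences under enzalutamide: ABCA1 ranged from -0.07 to 0.19 with DHT, from -0.07 to 0.13 with Dex 10 nM and from -0.20 to 0.03 with Dex 100 nM, and ABCG1 with DHT from -0.12 to 0.03. The cause of these changes was not tested.

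Genes called over the whole table varied over the 11 other settings: 57 to 179 for Dex 10 nM under enzalutamide (139 in the fit reported), 168 to 542 for Dex 100 nM (439), 8 to 73 between those doses (66) and 152 to 483 for Dex 100 nM against DHT (403). Against vehicle they were 290 to 647 with DHT (549), 102 to 552 with Dex 10 nM (283) and 277 to 777 with Dex 100 nM (653). They were 233 to 566 for enzalutamide added to DHT (480), 14 to 97 for Dex 100 nM against 10 nM (84), 120 to 386 for Dex 100 nM against DHT (337) and 149 to 279 for the DHT response difference (233).

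The titles number the arrays in sets of 10, which served as a replicate block. Deviations of arrays of one set correlated at -0.04 to 0.24, and 18, 0 and 17 of 28 pairs passed 0.1. The median correlations were 0.11, 0.01 and 0.11 in the 3 sets, and 20 of 24 arrays were closest to their own set. The labels do not say what the sets are, so the fit reported left them out and its p-values ignore any pairing by set. With the block, ABCG1 gave -0.68 (adjusted p = 0.000657) with Dex 100 nM and -0.48 (0.0307) with Dex 10 nM under enzalutamide, and 1, 1 and 2 members were called as without it. Over all alternatives, leaving out 1 array included, uncalled results changed sign in 23 cases over 16 results, the largest of them 0.22 in the fit reported. This count leaves out ABCA1 and ABCG1 with steroid against enzalutamide alone, whose sign changes are given above. ABCA1 was near background on 2 DHT arrays, which limits its size there.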
